A study of Mus musculus with 18 samples.

Results

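The regions described are the long intergenic noncoding RNA (lincRNA) regions that begin close to the centromeric end of the mouse autosomes and are represented on an Agilent whole-genome array. The array names each lincRNA region by its chromosome, start, end and strand on the mm9 build, with F for the forward and R for the reverse strand. Members were all noncontrol probes described as lincRNA whose region lay on chromosomes 1 to 19 and started below position 6000000, with 1 region inside the Malat1 interval and its 3 probes left out. They comprised 496 probes in 133 regions, of 16251 probes in 4622 lincRNA regions on the array. The members included 65 forward regions with 250 probes and 68 reverse regions with 246 probes. The regions overlapped one another to form 66 loci, held 1 to 10 probes each with a median of 3, and were 203 to 195776 bases long, with a median of 10601. The rule itself uses no measured value.

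The study separated the nuclei and the cytoplasm of muscle fibers to ask where noncoding RNAs reside in the fiber. The muscles were tibialis anterior (TA), soleus and extensor digitorum longus (EDL), and each fraction of each muscle was measured on 3 arrays, giving 18 arrays in 6 groups. All groups came from wild-type female CD1 mice aged 3 months, and each array held RNA from a pool of 5 to 10 intact fibers picked after collagenase digestion. In EDL and soleus, replicates 1, 2 and 3 came from mice 3 and 4, mice 5 and 6, and mice 7 and 8, in both fractions. In TA, the cytoplasm came from mice 5 and 1, mice 5 and 2, and mouse 9, whereas the nuclei came from mice 1, 2 and 3. The groups are limited as models because the nuclear fraction was a pellet from detergent lysis and can hold material attached to nuclei, and because collagenase digestion can leave other cells on a fiber.

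LincRNAs are transcribed from stretches between protein-coding genes and are usually capped and often spliced and polyadenylated, and many are enriched in the nucleus. Mouse autosomes carry the centromere at their first end, so the lowest positions of an assembled chromosome lie beside centromeric repeats, where duplicated sequence is common and a probe can match more than 1 locus. Malat1 and Neat1, both at the start of chromosome 19, are nuclear-retained noncoding RNAs of nuclear speckles and paraspeckles, and Tug1 on chromosome 11 is a noncoding RNA found in both compartments.

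A choice of 5 probes with large differences between fractions is shown first. They were taken from the leading members, 1 per region, that were well above background in every group, and leading here means among those members. They are not the largest differences of all members toward cytoplasm. The largest, -6.58, was that of another probe, and further members not shown in this set lay below -3.91, the value of the chromosome 3 probe. Each of the 5 is 60 bases long, is written 5′ to 3′ as on the array, and lies on mm9. The probe leading toward cytoplasm was on the reverse strand at chr16:3115830-3115889, the chromosome 3 probe was on the forward strand at chr3:3033534-3033593 and the chromosome 4 probe was on the reverse strand at chr4:3009786-3009845. The 2 probes leading toward nuclei were on the reverse strand at chr19:5798256-5798315 and chr19:5834603-5834662. No part of these 5 is capitalised.
A_30_P01018084: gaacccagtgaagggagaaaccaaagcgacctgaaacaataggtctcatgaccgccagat
A_30_P01029056: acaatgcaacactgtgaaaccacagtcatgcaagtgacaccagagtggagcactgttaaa
A_30_P01028043: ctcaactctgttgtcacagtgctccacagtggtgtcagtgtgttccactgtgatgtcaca
A_30_P01020935: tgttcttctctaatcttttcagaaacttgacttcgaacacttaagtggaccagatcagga
A_30_P01025818: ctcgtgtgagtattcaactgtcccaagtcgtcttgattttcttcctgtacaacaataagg

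A further set shows that regions at different places share sequence. Capitals mark a run of bases found in both probes of a pair. A_30_P01026901 on the reverse strand at chr16:3115694-3115753 shared 42 bases with A_30_P01031149 on the forward strand at chr16:3350838-3350897. A_30_P01026338 on the reverse strand at chr16:3116103-3116162 shared 48 bases with A_30_P01030968 on the forward strand at chr16:3350426-3350485. A_30_P01019593 on the forward strand at chr2:181666872-181666931, far from the start of its chromosome and not a member, shared 45 bases with A_30_P01026901.
A_30_P01026901: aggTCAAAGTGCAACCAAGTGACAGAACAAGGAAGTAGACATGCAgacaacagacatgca
A_30_P01031149: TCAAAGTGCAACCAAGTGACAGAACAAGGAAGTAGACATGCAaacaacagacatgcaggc
A_30_P01026338: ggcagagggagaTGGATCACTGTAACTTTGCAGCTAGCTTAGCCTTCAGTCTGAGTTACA
A_30_P01030968: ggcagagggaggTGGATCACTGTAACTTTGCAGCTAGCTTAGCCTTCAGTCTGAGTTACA
A_30_P01019593: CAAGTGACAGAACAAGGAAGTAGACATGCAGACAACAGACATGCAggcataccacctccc

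The last set is of probes that read opposite strands of the same bases, where the members' strand can be compared directly. Capitals mark the bases that the forward and the reverse probe of a pair cover together, so that the capitals of one are the reverse complement of those of the other. A_30_P01019869 and A_30_P01026301 lay on the forward and reverse strands at chr17:3114143-3114202. A_30_P01027104 lay on the forward strand at chr6:3349390-3349449 and A_30_P01029470 on the reverse strand at chr6:3349368-3349427.
A_30_P01019869: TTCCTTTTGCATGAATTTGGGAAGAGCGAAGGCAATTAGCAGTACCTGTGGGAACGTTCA
A_30_P01026301: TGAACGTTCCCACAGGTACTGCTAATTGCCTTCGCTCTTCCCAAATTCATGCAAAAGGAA
A_30_P01027104: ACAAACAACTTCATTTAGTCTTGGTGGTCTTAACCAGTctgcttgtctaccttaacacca
A_30_P01029470: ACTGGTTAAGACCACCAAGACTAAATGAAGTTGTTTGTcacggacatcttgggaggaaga

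All 11 markers of muscle fibers that were looked for were well above background on all 18 arrays, and 5 nuclear RNAs were called higher in nuclei by limma, by 2.71 on the log2 scale for Malat1, 2.78 for Neat1, 4.38 for Xist, 3.27 for Kcnq1ot1 and 2.23 for Meg3. The fitted differences of all 11 fiber markers also lay toward nuclei, from 0.21 for Acta1 to 1.30 for Myh1. Their summed normalized signal ranged from 16.72 to 17.67 in cytoplasm against 17.42 to 17.90 in nuclei. Markers of other cells were present too. The 4 endothelial genes and the 4 Schwann cell genes were measured on all 18 arrays, and the summed normalized signal ranged from 9.82 to 11.72 in cytoplasm against 11.74 to 12.25 in nuclei for the first and from 7.91 to 9.30 against 9.34 to 10.87 for the second. Macrophage genes ran from 11.48 to 12.75 in cytoplasm and from 11.24 to 11.49 in nuclei, and of the 4 satellite cell genes Myf5 was well above background on 12 arrays, 9 of them nuclear, Pax7 on 8, Chrdl2 on 5 and Calcr on 0. Connective tissue genes ran from 12.84 to 14.55 in cytoplasm and from 14.15 to 15.28 in nuclei. Erythroid genes ran from 12.99 to 14.74 and from 12.59 to 13.61, and adipocyte genes from 11.30 to 12.74 and from 12.56 to 12.94. The part of these other cells in the members' results was not tested. In EDL and soleus every cytoplasm array was on slide 1 and every nuclear array on slide 2, so fraction and slide cannot be told apart there. In TA, cytoplasm replicate 2 and the 3 nuclear arrays shared slide 4. The nuclear arrays of EDL and soleus were close to one another. For the 9 probes repeated over an array, the spread of single spots between the 3 arrays was 0.792 times the spread within an array for EDL nuclei, 0.968 for soleus nuclei and 1.76 for TA nuclei, against 1.90, 4.74 and 9.04 in the cytoplasm of the same muscles. Soleus cytoplasm replicate 2 stood apart, with the lowest share of members well above background.

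Most members were detected. Between 291 and 360 members, or 58.7% to 72.6%, were well above background on an array, against 52.2% to 72.4% of the lincRNA probes elsewhere on the autosomes. In all, 219 members were well above background on every array, 433 on at least 1 array and 63 on 0 arrays, and 129 of the 133 regions had a probe well above background somewhere. Testing required 2 or more of the 3 arrays of each group to have a value, which left 386 members in 126 regions and set aside 110 members. Of these 110, 2 were well above background on all 9 cytoplasm arrays and 0 on all 9 nuclear arrays.

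Members differed between nuclei and cytoplasm in both directions, and more of them were higher in cytoplasm. Over the 3 muscles, 184 of the 386 tested members (47.7%) were higher in cytoplasm and 104 (26.9%) were higher in nuclei, at an adjusted p under 0.05 in limma. Over all 40541 tested probes of the array, 38.6% were higher in cytoplasm and 31.2% in nuclei. The median difference of the members, nuclei minus cytoplasm on the log2 scale, was -0.37, with quartiles of -1.01 and 0.47, against -0.08 over all tested probes. The other autosomal lincRNA probes had a median of -0.46 over 10789 tested, with 5578 higher in cytoplasm and 2149 in nuclei. These include the 3 probes of the Malat1 interval left out of the members, at 2.89, 3.04 and 4.28. Probes of coding genes in the same intervals had a median of 0.21 over 565 tested, with 230 higher in nuclei and 155 in cytoplasm. The direction of the members' median depended on scaling, since without scaling between arrays it was 0.11 with 110 higher in cytoplasm and 154 in nuclei. The median of all probes then rose from -0.08 to 0.42, and the members lay at -0.31 from it, against -0.29 in the scaled data. Without soleus cytoplasm replicate 2, 191 members were higher in cytoplasm and 97 in nuclei, with a median of -0.42. With slide as a random block these counts were 105 and 73, and with the nuclear arrays of a muscle counted as 1 sample they were 134 and 69.

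**Figure D1:**
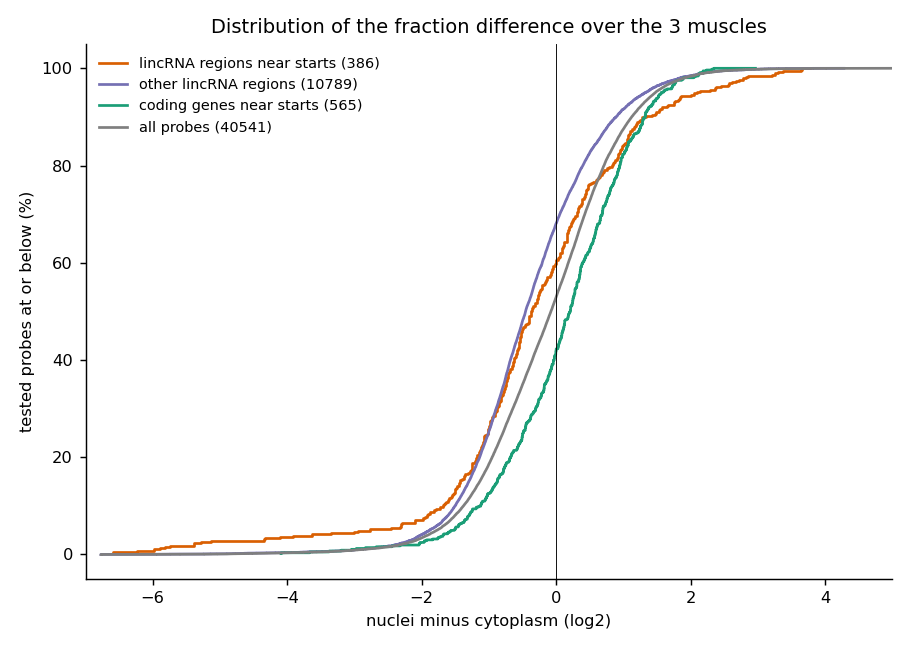
Cumulative share of probes (vertical axis, percent) by the difference of nuclei minus cytoplasm over the 3 muscles (horizontal axis, log2) for 386 members, 10789 other autosomal lincRNA probes, 565 probes of coding genes near chromosome starts and all 40541 tested probes. Around the middle the members run beside the other lincRNA probes, with medians of -0.37 and -0.46, and the coding genes lie to the right of both, with a median of 0.21.

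Within each muscle more members were higher in cytoplasm than in nuclei. In EDL, 136 of 413 tested members were higher in cytoplasm and 81 in nuclei, with a median of -0.31, where the whole array had 26.5% and 20.0%. In soleus, 119 of 406 were higher in cytoplasm and 87 in nuclei, with a median of -0.14, beside 21.7% and 18.7% of the array. In TA, 180 of 410 were higher in cytoplasm and 65 in nuclei, with a median of -0.57, beside 33.5% and 19.2% of the array. A total of 144 members were called in each of the 3 muscles, and 143 of them had 1 direction, 98 toward cytoplasm and 45 toward nuclei. Of the 166 members that were called in both EDL and soleus and had a value on TA slide 4, where both fractions were present, 156 (94.0%) had the same sign on that slide. The matching counts over the whole array are not given, so this agreement between muscles is not set apart from that of other probes. With slide as a random block the calls fell to 89 in EDL and 70 in soleus, and with the 3 nuclear arrays of each muscle taken as 1 sample they were 60, 39 and 75 in EDL, soleus and TA.

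Regions had calls in 1 direction, in both or in neither. Calls fell toward cytoplasm only in 68 regions, toward nuclei only in 23, in both directions in 25, and 10 regions had no call. The same split of other lincRNA regions is not given. By probe, 74.6% of tested members were called over the 3 muscles, beside 71.6% of other autosomal lincRNA probes and 69.8% of all tested probes. Only the 95 regions with 2 or more tested probes could have calls in both directions. Across the 662 pairs of tested probes within a region, the median absolute gap between their differences was 0.72. The region chr12:5303823-5379098_R is an example of calls in both directions, chosen after its values were seen. Its probe A_30_P01018906 differed by -2.94 between fractions (SE 0.20, limma adjusted p = 9.75e-09), while A_30_P01018482, which starts at 5370605 against 5370470, differed by 1.75 (SE 0.18, limma adjusted p = 2.1e-06) and was well above background on 0 cytoplasm arrays, so that its difference is a fitted value. The region chr7:3309825-3331151_R likewise held A_30_P01020775 at -0.74 and A_30_P01030121 at 2.68. In such regions the probes were therefore read singly.

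The members highest in cytoplasm lay in 4 regions that share sequence, called the shared-sequence regions here. The regions chr16:3111550-3130500_R, chr16:3337275-3355950_F, chr18:3003075-3016150_F and chr18:3003075-3016150_R were linked by runs of at least 30 shared bases and held 17 probes. All 15 tested probes of these regions were higher in cytoplasm, with a median difference of -5.38 and a range from -6.58 to -0.98. The 13 most cytoplasmic of the 386 tested members lay in these 4 regions, and the next member had -3.91. No gene function is attached to these 4 regions on the array. Runs of at least 30 bases also linked chr17:5795893-5835243_F and chr6:4841700-4847400_F to distant probes, but the median differences of these regions were 0.23 and -0.53.

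For A_30_P01018084, the leading chromosome 16 probe, the normalized log2 signals in cytoplasm were 12.14, 12.18 and 12.52 in EDL, 12.56, 10.99 and 12.45 in soleus, with 12.81, 12.36 and 11.62 in TA. In nuclei they were 5.57, 5.86 and 5.57 in EDL, between 4.92 and 5.35 in soleus, with 6.99, 7.14 and 7.00 in TA. Every cytoplasm array was above every nuclear array, and the lowest cytoplasm array was soleus replicate 2. The difference was -6.24 (SE 0.20, limma adjusted p = 1.31e-11). For A_30_P01021560 in chr16:3337275-3355950_F, the signals ran from 11.91 to 13.36 in cytoplasm and from 5.99 to 8.44 in nuclei, and its difference was -5.90. The fractions did not overlap, and the 3 highest nuclear arrays were those of TA.

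Probes that share a run had close differences even though they were designed to different places. A_30_P01026901 and A_30_P01031149, which carry the 42-base run printed above, differed by -5.38 and -5.39, and A_30_P01019593 of chromosome 2 by -4.58. A_30_P01026338 and A_30_P01030968, with the 48-base run, differed by -4.35 and -4.11. A_30_P01026674 on chromosome 16 and A_30_P01020808 on chromosome 18 differed by -5.13 and -5.28. The signals of these probes cannot be assigned to 1 of the places. The related regions chr2:181650800-181669350_F and its reverse partner, which are not members and lie far from the start of chromosome 2, held 5 tested probes, all lower in nuclei, between -4.65 and -2.26.

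The reverse chromosome 18 region held the largest difference of all members. For A_30_P01029618 the cytoplasm signals were 10.96, 10.99 and 11.46 in EDL, 11.60, 9.73 and 11.32 in soleus, with 11.80, 11.37 and 10.92 in TA. The nuclear signals were 3.24, 3.91 and 3.38 in EDL, 3.76, 3.60 and 3.64 in soleus, with 6.55, 6.52 and 6.28 in TA. The nuclear arrays of EDL and soleus were not well above background, whereas those of TA were, so a lower bound applies, at least 198-fold higher in cytoplasm in EDL and at least 149-fold in soleus. A bound of this kind sets the mean of the bright fraction against the dim fraction, where each dim array enters with the higher of the probe's own signal and the lowest signal counted as well above background. Here the probe's own signals were the higher. The fitted difference over the 3 muscles was -6.58 (SE 0.22, limma adjusted p = 1.31e-11).

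**Figure D2:**
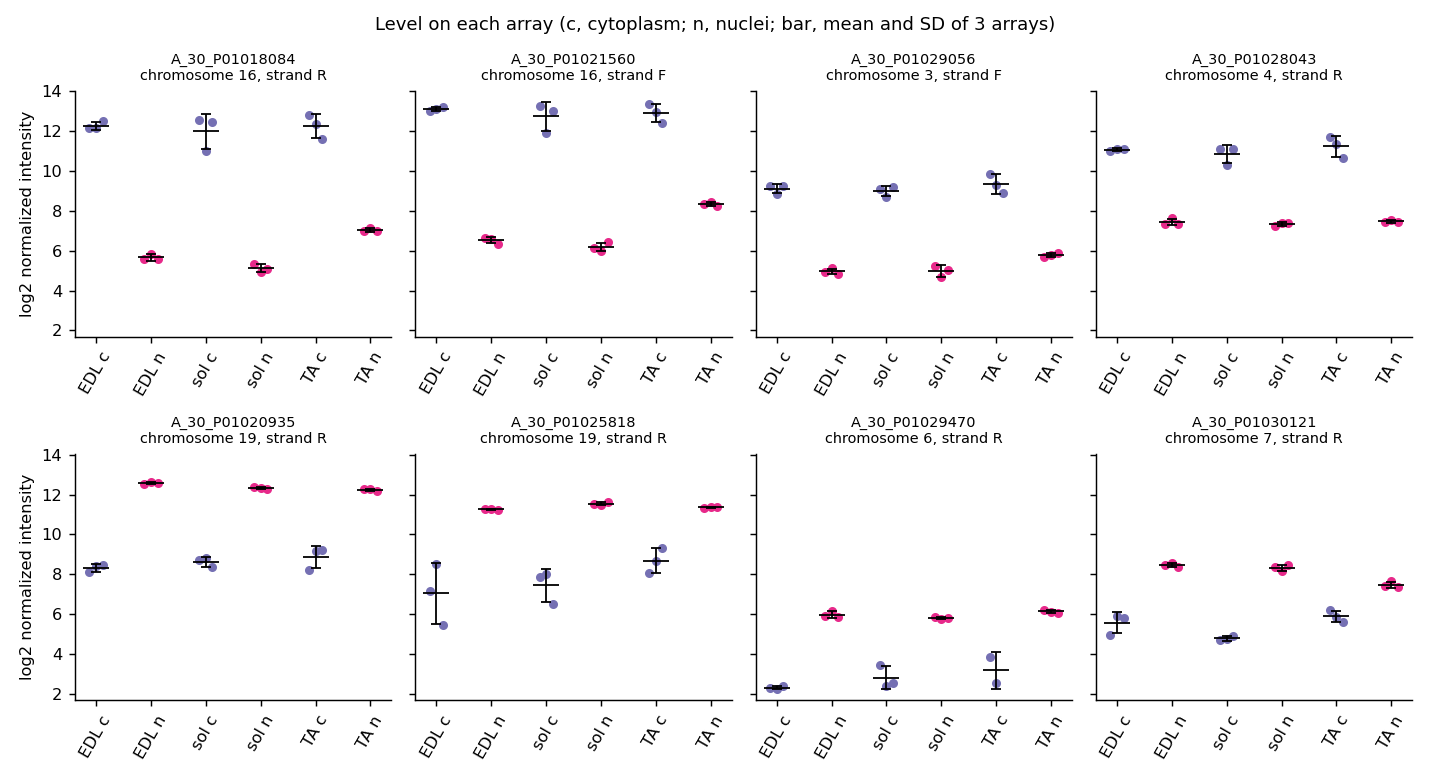
Normalized log2 signal (vertical axis) of 8 member probes on each of the 18 arrays, as points for cytoplasm (c) and nuclei (n) of EDL, soleus and TA, with bars for the mean and SD of 3 arrays (2 for A_30_P01029470 in TA cytoplasm, where 1 value is missing). The probes were chosen from those named in the text and are not the leading 4 in each direction. The 4 shown that were higher in cytoplasm, such as A_30_P01018084 from 10.99 to 12.81 against 4.92 to 7.14, have no overlap between fractions within a muscle. The 4 shown that were higher in nuclei have none either.

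Regions at the very start of chromosomes 3 and 4 followed. For A_30_P01029056 in chr3:3030146-3033623_F the cytoplasm signals were 9.27, 8.84 and 9.23 in EDL, 9.09, 8.71 and 9.20 in soleus, with 9.87, 9.28 and 8.90 in TA. The nuclear signals were 4.95, 5.11 and 4.86 in EDL, 5.23, 4.66 and 5.05 in soleus, with 5.66, 5.78 and 5.87 in TA. No nuclear array reached any cytoplasm array, and the difference was -3.91 (SE 0.14, limma adjusted p = 1.89e-11). The other tested probe of this region below -3, A_30_P01020418, had -3.01. For A_30_P01028043 in chr4:3009566-3009932_R the cytoplasm signals ran from 10.32 to 11.72 and the nuclear signals from 7.22 to 7.63, again without overlap. Its difference was -3.64 (SE 0.15, limma adjusted p = 6.52e-11), and its neighbour A_30_P01033653 had -3.35. The remaining named members toward cytoplasm were A_30_P01018906 of chr12:5303823-5379098_R at -2.94 and A_30_P01021925 of chr17:3004525-3086000_R at -2.77.

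A pair of members was well above background in cytoplasm alone. A_30_P01030946 in chr13:3497296-3500441_F and A_30_P01029164 in chr16:3337275-3355950_F were well above background on 9 cytoplasm and 0 nuclear arrays, a pattern held by 0.691% of all probes. A_30_P01030946 had 5.79, 7.16 and 6.75 in EDL cytoplasm, 7.20, 4.75 and 5.62 in soleus cytoplasm and 6.05, 5.86 and 5.68 in TA cytoplasm, and had no usable value on any nuclear array. It was thus at least 19.4-fold higher in cytoplasm in EDL, at least 11.1-fold in soleus and at least 11.4-fold in TA. For A_30_P01029164, which belongs to the shared-sequence regions, the bounds were at least 33.8-fold, 25.9-fold and 14.5-fold. These probes had too few nuclear values to be tested.

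The members highest in nuclei lay at the chromosome 19 locus that holds Malat1 and Neat1. There, 6 regions held 24 member probes, of which 23 were tested, and 22 were higher in nuclei and 1 in cytoplasm, with a median of 2.29 and a range from -0.37 to 3.77. The array carries 10 probes named for Malat1 and Neat1 inside these regions, which are not members and had differences from 1.64 to 3.26. The 8 other regions of chromosome 19 had 16 tested members, 14 higher in cytoplasm and 0 in nuclei by limma, with a median of -0.84 and a highest value of -0.06. All nuclear calls among the members of this chromosome thus lay at a single locus.

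For A_30_P01020935 in chr19:5798135-5800557_R, on the strand of Malat1, the cytoplasm signals were 8.11, 8.39 and 8.49 in EDL, 8.73, 8.82 and 8.34 in soleus, with 8.22, 9.18 and 9.21 in TA. The nuclear signals were 12.55, 12.61 and 12.56 in EDL, 12.38, 12.33 and 12.28 in soleus, with 12.27, 12.27 and 12.17 in TA. All 9 nuclear arrays lay above all 9 cytoplasm arrays, and the difference was 3.77 (SE 0.13, limma adjusted p = 1.89e-11). For A_30_P01025818 in chr19:5834117-5835940_R, a region between the Malat1 and Neat1 probes of the array, the nuclear signals ran from 11.25 to 11.61 while the cytoplasm signals ran from 5.47 to 9.31. Its fractions did not overlap either, although the cytoplasm arrays spread widely, and the difference was 3.66 (SE 0.32, limma adjusted p = 1.25e-07). Also named were A_30_P01028538 of chr19:5771425-5848475_R at 3.64, A_30_P01028215 of chr19:5801802-5802597_R at 2.83, A_30_P01029504 of chr19:5841103-5845579_F at 2.78 and A_30_P01020604 of chr19:5771425-5848475_F at 2.57.

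Both strands of this locus were higher in nuclei. Of the members there, 12 of 13 tested forward probes and 10 of 10 tested reverse probes were called toward nuclei, with medians of 1.53 and 3.28. The array places its Malat1 and Neat1 probes on the reverse strand, so the forward members read the opposite strand. A_30_P01029504, a forward probe, had nuclear signals from 11.01 to 11.40 against cytoplasm signals from 7.57 to 9.19, with no overlap. A_30_P01020604, also forward, had nuclear signals from 13.88 to 14.81 against 9.78 to 12.87 in cytoplasm, again with no overlap.

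Outside chromosome 19, calls toward nuclei were most numerous on chromosomes 12, 17 and 11. There 21 of 50, 21 of 55 and 13 of 25 tested members were higher in nuclei, beside 31.2% of all tested probes. Higher in cytoplasm were 18, 25 and 4 members of these chromosomes. A_30_P01030121 in chr7:3309825-3331151_R had nuclear signals of 8.46, 8.55 and 8.37 in EDL, 8.36, 8.18 and 8.47 in soleus, with 7.43, 7.64 and 7.35 in TA, against cytoplasm signals from 4.68 to 6.19. The fractions did not overlap, and the difference was 2.68 (SE 0.13, limma adjusted p = 5.2e-10). A_30_P01032842 in chr17:3206316-3208050_F differed by 2.56 (SE 0.20, limma adjusted p = 3.69e-08). Its nuclear signals ran from 6.05 to 7.59 and its cytoplasm signals from 3.44 to 6.02. The lowest nuclear array and the highest cytoplasm array, both of TA, were close.

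A set of 4 members was well above background in nuclei alone, on 9 nuclear and 0 cytoplasm arrays, as were 0.436% of all probes. They were A_30_P01029470 of chr6:3333825-3349525_R, A_30_P01018482 of chr12:5303823-5379098_R, A_30_P01028753 of chr16:4867322-4874772_F and A_30_P01018564 of chr18:5988500-6022000_R, with fitted differences of 3.21, 1.75, 2.05 and 1.81. A_30_P01029470 had nuclear signals of 5.91, 6.16 and 5.86 in EDL, 5.86, 5.73 and 5.80 in soleus, with 6.23, 6.12 and 6.06 in TA. Its cytoplasm signals, from 2.25 to 3.83 with no usable value for TA replicate 3, were not well above background. It was at least 11.9-fold higher in nuclei in EDL and at least 7.57-fold in soleus, and no bound is given for TA, where 1 value is missing.

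The Tug1 locus of chromosome 11 gave a further group of nuclear members. In chr11:3538125-3554450_F, 10 member probes were tested and 9 were higher in nuclei, with 1 higher in cytoplasm. This region is on the strand opposite to Tug1 as the array annotates it. The Tug1 probe A_51_P119401, not a member, differed by 1.68, while the probes the array names TUG1 on the Tug1 strand included A_30_P01033104 at -0.21 and A_30_P01017489 at 0.96. Chromosome 11 was the only chromosome besides 19 whose tested members had a median above 0, at 0.47 over 25 probes with 13 higher in nuclei and 4 in cytoplasm.

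The shared-sequence regions and the chromosome 19 locus together made up 10 of the 133 regions. The other members had 348 tested probes, of which 168 were higher in cytoplasm and 82 in nuclei. Their median was -0.38, beside -0.46 for the other autosomal lincRNA probes, and their range was from -3.91 to 3.21.

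Distance from the chromosome start gave no steady trend. In bins of 0.5 Mb counted from position 3000000, where the assembled sequence begins, the median differences were -0.37 over 129 tested probes, 0.24 over 37, -0.59 over 32, -0.48 over 80, -0.57 over 30 and -0.07 over 78. Leaving out the shared-sequence regions moved the first bin to -0.01 over 114 probes, and leaving out the chromosome 19 locus moved the last to -0.61 over 55. Coding genes in the same bins had medians of 0.36, 0.08, 0.09, 0.28, 0.13 and 0.35. Across the 386 probes, which share regions and arrays and are not independent, Pearson's r of distance and difference was 0.188 and Spearman's rho 0.079, as a description only. Without the shared-sequence regions these were 0.059 and -0.013, and without the chromosome 19 locus as well they were -0.148 and -0.155. The sign thus rested on the shared-sequence regions and the chromosome 19 locus. The GC content of the probe had a rho of -0.192 with the difference.

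**Figure D3:**
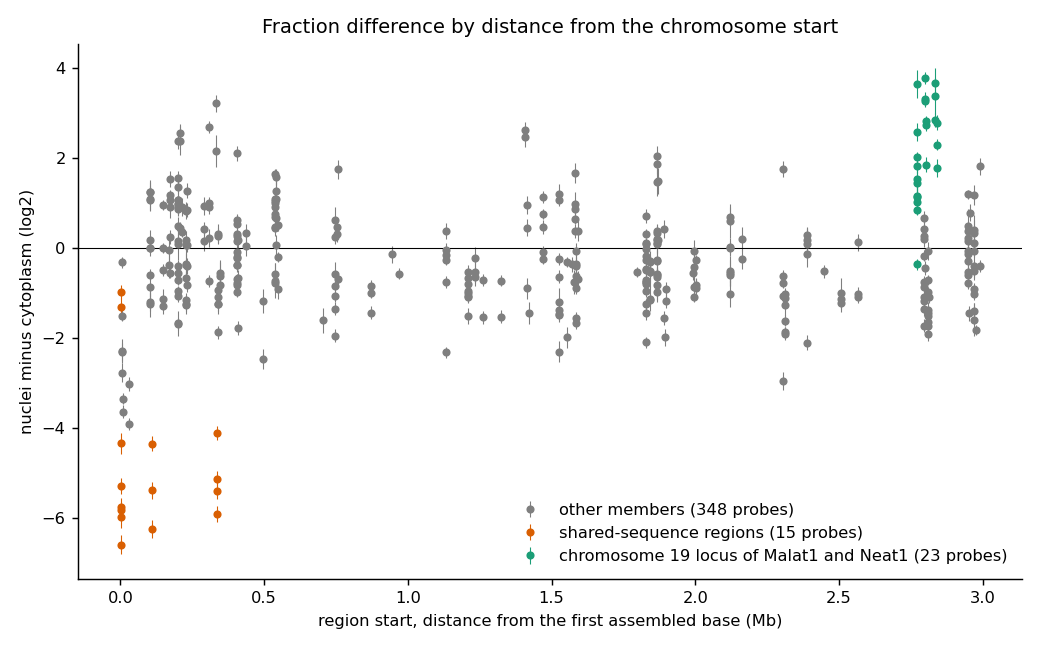
Difference of nuclei minus cytoplasm (vertical axis, log2, bars for the SE) of 386 members by distance of the region from the assembled chromosome start (horizontal axis, Mb). Of the 15 probes of the shared-sequence regions, 13 lie lowest, at the left, 22 of the 23 probes of the chromosome 19 locus lie above 0 at the right, and the other 348 have a median of -0.38.

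The region with the lowest start was examined on each of the 18 chromosomes that had a member. By the probe of that region with the highest mean signal, 15 were tested, of which 12 were higher in cytoplasm, 2 in nuclei and 1 was not called, over a range from -5.28 to 1.17, where 38.6% of the array and 51.7% of other autosomal lincRNA probes were higher in cytoplasm. The lowest starts of all were those of chromosomes 18, 17, 4 and 3. A_30_P01020808 in chr18:3003075-3016150_F differed by -5.28, A_30_P01028043 of chromosome 4 by -3.64 and A_30_P01029056 of chromosome 3 by -3.91. A_30_P01031860 in chr17:3004525-3086000_F had a small difference of -0.32 (limma adjusted p = 0.0365), which turned to 0.47 without scaling between arrays. The other tested probe of that region had -2.29. The 3 tested probes of its reverse partner ranged from -2.77 to -1.51, and all were called toward cytoplasm.

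Large cytoplasmic differences were also found away from the chromosome starts. A difference below -3 was found for 17 of the 386 members (4.40%) in 6 regions. Among other autosomal lincRNA probes, 0 of 222 between 3 and 6 Mb from the assembled start and 0 of 127 between 6 and 9 Mb were this low, but 12 of 211 (5.69%) between 9 and 12 Mb and 89 of 10226 (0.87%) in 64 regions beyond 12 Mb were. The median differences in these windows were -0.38, -0.23, -0.62 and -0.46. At the limit of the rule, the last members inside were chr18:5988500-6022000_F at -0.41 and its reverse partner at 1.81. The first regions outside were chr18:6014252-6015019_R, which was not tested, and chr10:6081900-6105500_F, with a median of -1.06 over 5 probes.

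Both strands had more members higher in cytoplasm than in nuclei. Among forward members, 93 of 200 tested were higher in cytoplasm and 61 in nuclei, with a median of -0.34. Among reverse members, 91 of 186 were higher in cytoplasm and 43 in nuclei, with a median of -0.39. Over the whole array 38.6% of tested probes were higher in cytoplasm and 31.2% in nuclei. The members also held 55 pairs of probes that read opposite strands of the same 31 to 60 bases, from 108 probes in 46 regions, and both probes were tested in 44 pairs. In 26 of these both probes were called, 20 times both toward cytoplasm, 5 times both toward nuclei and 1 time in opposite directions. In 13 pairs a single probe was called and in 5 neither was. The median absolute gap between the strands was 0.31, where the median SE of a single probe's difference was 0.18, and the gap was above 1 in 8 pairs. Across the 44 pairs Pearson's r was 0.865 and Spearman's rho 0.703, and across the 42 pairs outside the shared-sequence regions they were 0.709 and 0.659. These are descriptions, since both probes of a pair were read on the same arrays and have complementary bases.

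**Figure D4:**
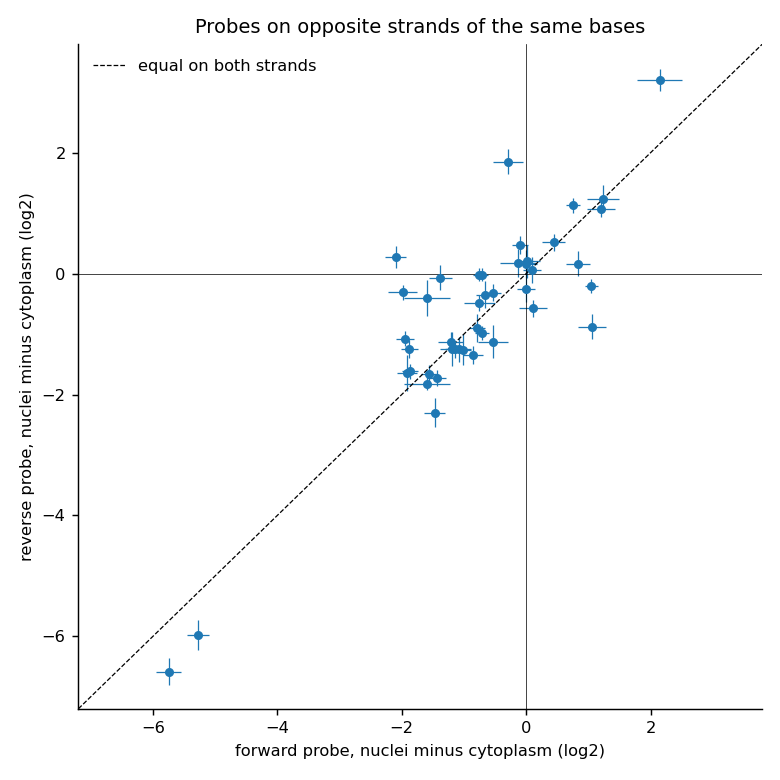
Difference of nuclei minus cytoplasm (log2) of the forward probe (horizontal axis) against the reverse probe (vertical axis) for 44 pairs reading opposite strands of the same bases, with bars for the SE and a line of equality. Most pairs lie near the line, with a median absolute gap of 0.31, and 8 pairs have a gap above 1.

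The widest gap between strands was on chromosome 11. At chr11:5387350-5403150, the forward probe A_30_P01032928 had cytoplasm signals from 5.54 to 6.69 and nuclear signals from 3.59 to 4.77, without overlap, and was well above background on 1 of the 9 nuclear arrays. Its fitted difference was -2.10, while the reverse probe A_30_P01021274 had 0.28 and overlapped between fractions, a gap of -2.38. At chr17:3103174-3114885, A_30_P01019869 and A_30_P01026301 covered the same 60 bases and were called in opposite directions, at 1.06 (limma adjusted p = 0.000828) and -0.88 (limma adjusted p = 0.00149). Their signals were low, with the forward probe between 2.63 and 5.46 and the reverse between 2.64 and 5.62, and both probes overlapped between the fractions over all arrays. The other wide gaps were A_30_P01022225 at -0.29 against A_30_P01023011 at 1.85 in chr16:4867322-4874772, and A_30_P01019164 at -1.99 against A_30_P01025127 at -0.31 in chr12:4554378-4560302. Without scaling A_30_P01025127 turned to 0.11. The closest pairs were A_30_P01023975 at 1.23 and A_30_P01024211 at 1.24 in chr17:3103174-3114885, and A_30_P01030727 at 0.09 and A_30_P01025887 at 0.06 in chr10:3227840-3233588, of which the last was well above background on 0 arrays. The chromosome 6 pair printed above, which shares 38 bases, had 2.15 for A_30_P01027104 and 3.21 for A_30_P01029470.

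Few members passed a test of whether the muscles differed in how RNA divided between the fractions. This test called 7 of 386 members (1.81%), beside 1.57% of all tested probes, and 89 members had an unadjusted p under 0.05. The 7 fell in the shared-sequence regions (4 probes), on chromosome 12 (2 probes) and on chromosome 7 (1 probe). A_30_P01030121 of chromosome 7 differed between fractions by 2.89 in EDL, 3.56 in soleus and 1.59 in TA (limma interaction, adjusted p = 0.0194). A_30_P01031149 of chromosome 16 differed by -6.45, -5.94 and -3.78 (adjusted p = 0.0196). A_30_P01029175 in chr12:4469975-4482792_R differed by 1.19, 1.99 and 0.21 (adjusted p = 0.0215). With slide as a random block 0 of the 7 passed, at adjusted p from 0.0929 to 0.395. The count of 7 became 0 without TA nuclei replicate 3 or without soleus nuclei replicate 3, 1 without replicate 1 of either, and up to 19 without other arrays.

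The shared-sequence regions had smaller differences in TA than in the other muscles, and 4 of their probes were among the 7 above. The median over them was -6.31 in EDL nuclei against cytoplasm, -5.87 in soleus and -4.25 in TA, and the difference was smaller in TA than in EDL for 13 of the 15 tested probes and smaller than in soleus for 14. On each array the median signal of these probes in cytoplasm was 12.07, 12.15 and 12.49 in EDL, 12.35, 10.99 and 12.34 in soleus, with 12.72, 12.32 and 11.67 in TA. In nuclei it was 5.86, 6.02 and 6.08 in EDL, 5.99, 5.92 and 6.00 in soleus, with 7.81, 7.98 and 7.83 in TA. The TA nuclear arrays were thus above all other nuclear arrays, while the cytoplasm arrays of the 3 muscles overlapped. The TA nuclear arrays were scanned on another slide and another day than those of EDL and soleus, so muscle and slide cannot be told apart in nuclei. Within slide 4, where a TA cytoplasm array stood beside the TA nuclear arrays, the differences of A_30_P01031149 and A_30_P01021560 were -3.82 and -4.63. Over all TA arrays they were -3.78 and -4.57. Both sets of values use the same TA nuclear arrays, so this comparison cannot tell muscle from slide.

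Soleus, a muscle rich in slow fibers, and EDL, a muscle of fast fibers, differed in few called members. Averaged over both fractions, 3 of 395 tested members were called and all 3 were lower in soleus, beside 3.83% of all tested probes called in either direction. By limma 0 members were higher in soleus, with 9 at an unadjusted p under 0.05 in that direction. A_30_P01018962 in chr8:4325209-4348788_F had 6.90, 6.55 and 6.97 in EDL cytoplasm against 6.28, 5.94 and 6.69 in soleus cytoplasm, and 6.40, 6.55 and 6.28 in EDL nuclei against 5.28, 5.53 and 5.48 in soleus nuclei. The nuclei did not overlap between the muscles and the cytoplasm did, and the difference, soleus minus EDL, was -0.74 (SE 0.14, limma adjusted p = 0.00637). A_30_P01021629 in chr19:4209657-4210475_R had -0.66 (adjusted p = 0.0392). The third, A_30_P01017864 in chr12:3406750-3425850_R, had -0.84 (adjusted p = 0.0441) and was well above background on 0 soleus cytoplasm arrays. The count of 3 ran from 1 to 7 when 1 array at a time was left out, was 1 with the mouse pool as a block, and was 0 with each muscle's nuclear arrays as 1 sample, where 3 had an unadjusted p under 0.05.

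TA and EDL, both muscles of fast fibers, differed in more members. Averaged over both fractions, 41 of 395 tested members were higher in TA and 56 were lower, beside 13.5% and 16.6% of all tested probes. With slide as a random block 0 were called and 54 had an unadjusted p under 0.05. A_30_P01019037 in chr19:5834117-5835940_R led the named members higher in TA, at 1.62 (limma adjusted p = 0.0219). Its cytoplasm signals were 5.92, 7.36 and 4.54 in EDL against 6.94, 8.86 and 9.62 in TA, which overlapped, and its nuclear signals were 10.08, 9.95 and 9.73 against 10.58, 10.61 and 10.68, which did not. Also higher in TA were A_30_P01031149 at 1.39 and A_30_P01019700 of chr18:3003075-3016150_F at 1.14, both of the shared-sequence regions.

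Lower in TA were members of chromosomes 11, 6 and 7. A_30_P01025194 in chr11:3538125-3554450_R, on the Tug1 strand, was lower by -1.96 (SE 0.47, limma adjusted p = 0.00587). Its cytoplasm signals were 9.75, 8.57 and 8.04 in EDL against 9.56, 6.65 and 6.54 in TA, and its nuclear signals 8.97, 8.01 and 9.50 against 6.33 and 6.40 in TA replicates 2 and 3 and lower still in replicate 1. The nuclei did not overlap, and TA cytoplasm replicate 1, scanned on slide 1 with the EDL cytoplasm, lay among the EDL arrays. A_30_P01017482 in chr6:4841700-4847400_R, at -1.72 (adjusted p = 0.00149), had TA cytoplasm signals of 13.02, 10.41 and 11.92 against 13.28, 13.43 and 13.21 in EDL. Replicate 1 was again the closest to EDL. TA cytoplasm replicate 1 differs from replicates 2 and 3 in both slide and mouse pool, and the part of either was not tested. A_30_P01018038 in chr7:3338500-3360725_R was lower by -1.51 (adjusted p = 0.00076), with 5.71, 4.61 and 4.32 in TA cytoplasm against 6.20, 6.81 and 6.53 in EDL cytoplasm, and no overlap in either fraction.

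**Figure D5:**
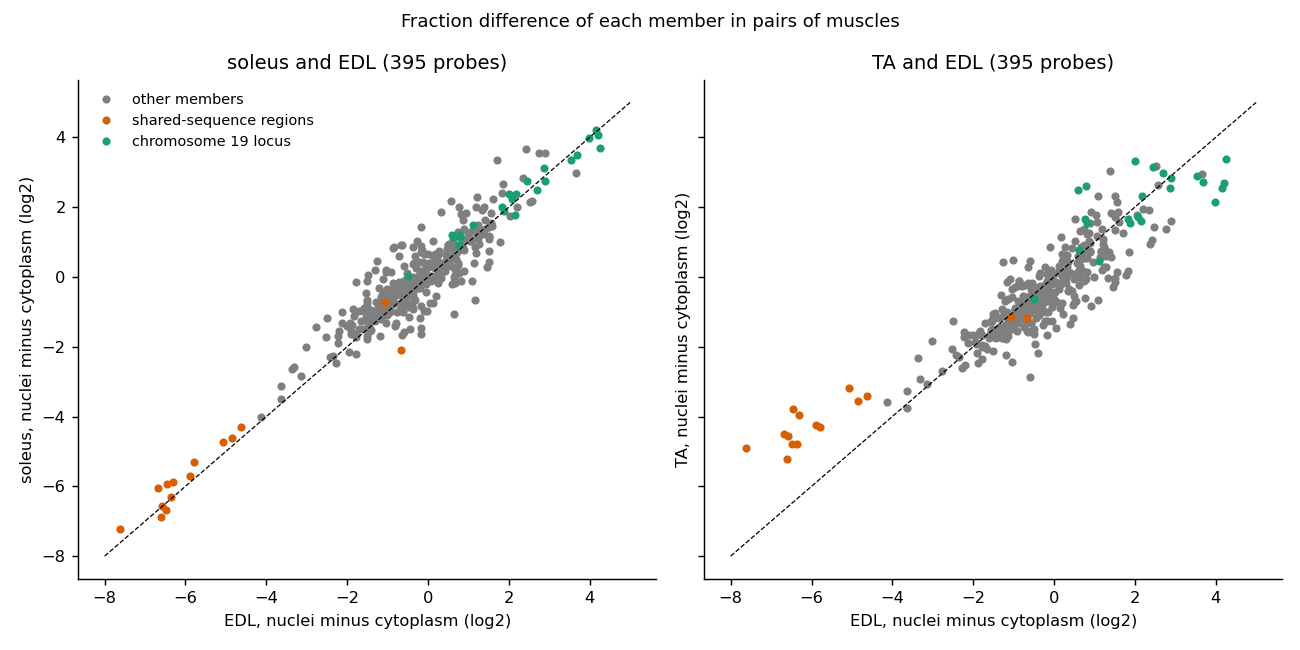
Difference of nuclei minus cytoplasm (log2) of the tested members in EDL (horizontal axis) against soleus and against TA (vertical axes, 1 panel of 395 probes each), coloured for the shared-sequence regions, the chromosome 19 locus and other members, with a line of equality. The lowest points, those of the shared-sequence regions, lie near the line for soleus and above it for TA, where their median is -4.25 against -6.31 in EDL.

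Coding genes placed by the array below 6000000 served as a comparison. The 5 with the highest signal were Suv39h2, a histone methyltransferase of heterochromatin, at -0.10, Oprm1, the mu opioid receptor, at -0.04, Crebbp, a histone acetyltransferase, at 0.10, Rgs20, a regulator of G protein signaling, at -0.38 and Zfp628, a zinc finger protein, at 0.17. Rgs20 was the only one of these 5 called between fractions (limma adjusted p = 0.00114). The group means of these 5 ran from 14.23 to 15.50 on the log2 scale. Over all 565 tested coding probes 385 (68.1%) were called, so these 5 do not stand for the set, and the differences ran from -4.09 to 2.96.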

How the data were processed

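The deposited files hold Cy3 intensity of 1-colour arrays, extracted by the authors with Feature Extraction 10.7.3.1 on an mm9 design; cRNA was made with a kit that primes at poly(A) tails. Processed signals were put on the log2 scale, spots without the positive-and-significant flag were set missing, arrays were quantile-normalized and spots of a probe were averaged, as the authors described. Spots marked as outliers were also set missing here. Differences were fitted with limma 3.58.1 in R 4.3.3 over 6 group means of 18 arrays, and p was adjusted by Benjamini-Hochberg over all tested probes at 0.05. The interaction was a moderated F test. A probe is well above background where the scanner file marks it so on at least 1 spot.

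Members and lists were chosen with earlier results of these data known. Named were the 8 leading probes toward each fraction, 1 per region, that were well above background in every group, the 3 leading in the interaction, up to 3 each way between muscles, the lowest starts, the widest and closest strand pairs and the largest group sharing 30 bases. Levels were not compared between probes, except to pick the named coding genes and the lowest-start probes by highest mean. Replicate numbers pair the pools of EDL and soleus across fractions, which came from the same mice. TA cytoplasm 1 and 2 share mouse 5 with each other and with EDL and soleus replicate 2, and each shares 1 mouse with the TA nuclei of its number. TA replicate 3 shares none across fractions, and TA nuclei 3 shares mouse 3 with EDL and soleus replicate 1. Correlations of deviations between such arrays ran from -0.11 to 0.13 over 35528 probes. With 3 arrays a group, precision is limited by that number. The p-values measure the spread between arrays, which may be technical. In EDL and soleus nuclei, single spots of repeated probes spread no more between arrays than within an array. Whether those arrays carry the spread between separate pools was not tested. In data simulated on the same arrays, 99.5% of changed probes were recovered over the 3 muscles and 69.0% in the interaction, among 35528 probes. The changes set there were of 2 on the log2 scale, larger than most differences reported here, in probes with a value on every array. No slide effect was simulated, and recovery of smaller changes was not tested. Alternatives changed scaling, background correction, detection filters, blocks, and the arrays or probes used. A deposited matrix of 3668 probes was an alternative. No genome was used.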

Additional observations from a re-analysis of the deposited data

Results flagged for a closer look

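The difference between fractions was unequal across the 3 muscles in 7 members, by the limma interaction test adjusted over all tested probes, and no other member passed. The adjusted p was 0.0194 for A_30_P01030121 of chr7:3309825-3331151_R, 0.0196 for A_30_P01031149 of chr16:3337275-3355950_F and 0.0215 for A_30_P01029175 of chr12:4469975-4482792_R. It was 0.0269 for A_30_P01026901 of chr16:3111550-3130500_R, with an EDL difference of -6.31, a soleus difference of -5.87 and a TA difference of -3.97. It was 0.03 for A_30_P01029618 of chr18:3003075-3016150_R, with fitted values of -7.63, -7.22 and -4.91, of which the EDL and soleus nuclei were not well above background, and 0.031 for A_30_P01021560 of chr16:3337275-3355950_F, with -6.58, -6.55 and -4.57. It was 0.042 for A_30_P01017864 of chr12:3406750-3425850_R, with 1.70, 3.35 and 1.25, of which the soleus cytoplasm was not well above background. Within slide 4, which held 1 TA cytoplasm and 3 TA nuclear arrays, the TA differences of the 7 were 1.60, -3.82, 0.10, -3.94, -4.92, -4.63 and 1.32 in the order given. With the nuclear arrays of a muscle counted as 1 sample, the adjusted p of each was 1.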

How the results depend on the processing

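Counts given here are of called members. Scaling to the 75th percentile gave 19 in the interaction and 5 for soleus against EDL; no scaling gave 110 higher in cytoplasm, 181 in the interaction, 1 for soleus against EDL and a median of 0.11, with 58.3% of calls toward nuclei against 36.1%. Normexp background correction gave 15, 8 and a median of -0.14, and no flag filter 14, 6 and -0.13. Requiring signal well above background gave 68 higher in nuclei, 12 in the interaction and 7 for soleus against EDL. The deposited matrix held 35 members in 14 regions and gave 1 higher in cytoplasm and 18 in nuclei, 14, 15 and 18 calls in EDL, soleus and TA, 0 in the interaction (3 at unadjusted p under 0.05), 0 for soleus against EDL (8), 8 for TA against EDL and a median of 0.65.

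With replicate pairing as a block, the interaction had 2 calls and soleus against EDL 1, and TA against EDL could not be fitted because the blocks of TA were kept apart from those of EDL. Over the 3 muscles the block gave 183 higher in cytoplasm and 101 in nuclei. With slide as a random block there were 105 higher in cytoplasm, 89 in EDL, 70 in soleus, and 0 in the interaction (52 at unadjusted p under 0.05) and in TA against EDL (54). Slide as a fixed block gave 1 for soleus against EDL. Treating each muscle's 3 nuclear arrays as 1 sample left 134 higher in cytoplasm, 69 in nuclei, 60, 39 and 75 in EDL, soleus and TA, and 0 in the interaction (8), soleus against EDL (3) and TA against EDL (54).

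With 1 probe a region, 74 were higher in cytoplasm and 28 in nuclei, with 74, 69 and 83 in EDL, soleus and TA, 0 in the interaction (19), 0 for soleus against EDL (13), 27 for TA against EDL and a median of -0.57. Without the shared-sequence regions, an alternative added after seeing the data, the interaction had 3. Significance Analysis of Microarrays gave 105 in TA. Leaving out 1 array at a time gave 172 to 191 higher in cytoplasm, 91 to 102 in nuclei, 183 to 231 in EDL, 161 to 221 in soleus, 213 to 251 in TA, 0 to 19 in the interaction, 1 to 7 for soleus against EDL, 73 to 117 for TA against EDL and medians of -0.44 to -0.32. The interaction had 0 without TA nuclei replicate 3 or without soleus nuclei replicate 3, with 77 at unadjusted p under 0.05 in each. A_30_P01031860 and A_30_P01025127 turned to 0.47 and 0.11 without scaling. Of 1378 checks of named results, 1270 kept their side of the threshold, 96 lost it, 10 gained it and these 2 turned. The causes were not tested, except that fewer probes or arrays enter where some are left out. Signals near background limit the low probes.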
